A study of Danio rerio with 6 samples.

Results

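The mitosis and cytokinesis genes are the genes that carry a cell through division after its DNA has been copied. In vertebrates, Cdk1 bound to A- and B-type cyclins starts mitosis, the Aurora and Polo kinases build the spindle and correct its attachments, and the kinetochore ties each chromosome to spindle microtubules. The spindle checkpoint holds back the anaphase promoting complex until every chromosome is attached. Separase then parts the sister chromatids, and the central spindle and the contractile ring divide the cell. Most of these transcripts are made only in cycling cells and peak late in the cycle, so in a whole larva their level follows both the number of dividing cells and the RNA in each. These cannot be told apart in RNA from whole larvae. At this age dividing cells are known to lie in the ventricular zones of the brain, the margin of the retina, the gut, the fins and the sites of blood formation.

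A list of 36 such genes was looked up by gene name in the deposited table, and 35 of them were found among its 32520 genes. The name *incenp* was not found. The row named CABZ01058261.1, which the table describes as inner centromere protein and whose NCBI gene number is that of *incenp* in RefSeq, is described on its own and is not counted among the 35. Whole larvae were sampled at 4 days post fertilization (dpf) as 3 wild-type (WT) pools of the AB strain and 3 maggot (*mgt*) pools, each of 60 larvae, and the labels call the latter *plod3* KO. The *mgt* larvae were homozygous for a missense allele of *plod3*, the gene for a lysyl hydroxylase that modifies collagen, in the AB background. The labels name the pools biological replicates, and a legend in the paper names them technical replicates. Every SD and p-value treats them as separate pools.

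The values are RPKM, reads scaled to gene length in kilobases and to library size. From the steps between low values, 1 RPKM stood for 38.35 to 50.27 reads per kilobase in the shallowest and the deepest library. All WT pools carry one batch label and all *mgt* pools another, and batch and genotype cannot be told apart. The mean RPKM of *plod3* itself was 15.4 ± 1.28 (SD, n = 3) for WT and 24.2 ± 0.24 (SD, n = 3) for *mgt*, and a level does not check a missense allele. WT replicate 1 stood apart from the other WT pools. Its place on the first principal component (83.5% of the variance) was 0.53 of the distance between the other WT pools and the *mgt* mean, and the WT mean in the authors' table equals that of WT replicates 2 and 3 in all 32520 genes. All 6 libraries were used here. The counts for the whole list and for the further mitosis genes are also given without WT replicate 1. Other counts are with all 6 libraries unless stated. The table held 170 rows for markers of 12 cell types and organs, from neurons to liver, and 0 of these rows were at 0 in the WT mean, though the lowest, a *hbba1* row, was at 0.017 RPKM.

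Of the 35 genes, 34 had a mean RPKM of at least 0.5 and were tested with limma on log2(RPKM + 0.5) among all 20435 genes that passed this filter. A gene was called at a Benjamini-Hochberg adjusted p below 0.05 over all genes tested and a log2 fold change of at least 0.32 in size. In *mgt*, 11 of the 34 genes were called lower, a share of 32.4% where 15.6% of all genes tested were called lower (47.4% in either direction). The count called higher was 0 of 34, where 31.8% of all genes tested were called higher, and 1 of the 34, *anln*, was higher at an unadjusted limma p below 0.05. The genes called lower were *cdk1*, *ccnb2*, *aurkb*, *cdca8*, *birc5a*, *cdc20*, *ndc80*, *nuf2*, *spc24*, *spc25* and *nusap1*. The median log2 fold change of the 34 genes was -0.23, and that of all genes tested was 0.29. Without WT replicate 1 the counts were 11 lower and 4 higher, where 18.1% and 52.2% of all genes tested were called, and 10 of the 11 genes were called lower in both fits. Without WT replicate 2 and without WT replicate 3 the counts called lower were 9 and 7, where 11% and 12.2% of all genes tested were called lower. Without *mgt* replicate 1, 2 or 3 they were 4, 4 and 3 (11.8%, 11.8% and 8.82% of the 34). In these fits 8.8%, 8.28% and 8.44% of all genes tested were called lower, so each of these shares was near the background. With a stricter threshold, a fold change of at least 2.38, 0 of the 34 genes were called, where 2.38% of all genes tested were called lower.

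The number of calls also moved with the scaling of the libraries. With libraries set to an equal sum of RPKM (same-sum scaling), 4 genes (11.8%) were called lower and 1 (2.94%) higher. Of all genes tested 9.33% and 43.1% were called, so the share called lower was near the background. The median of the 34 genes was then -0.001 and the median of all genes was 0.49. Median-of-ratios factors gave 25 called lower and 0 higher, where 24.6% and 23.4% of all genes tested were called, with medians of -0.52 for these genes and 0.02 for all genes, and quantile normalization gave 27 lower and 0 higher, where 26.1% and 22.9% were called, with medians of -0.52 and -0.002. Among all called genes, the share called higher was 67.0% as deposited and 82.2%, 48.7% and 46.7% under these scalings in turn. The gap between both medians was -0.52 as deposited, -0.49 with the same sum, -0.54 with median-of-ratios factors and -0.52 with quantile normalization. A factor per library shifts all genes nearly alike, so the same-sum and median-of-ratios scalings could hardly move this gap. The genes *birc5a* and *nuf2* were called lower in every one of the 18 alternative fits, and the log2 fold change of each of the 11 genes was negative in all 18. The signs of the 23 genes that were not called depended on the scaling, with 16 negative as deposited, 6 with the same sum per library, 21 with median-of-ratios factors and 22 with quantile normalization.

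**Figure D1:**
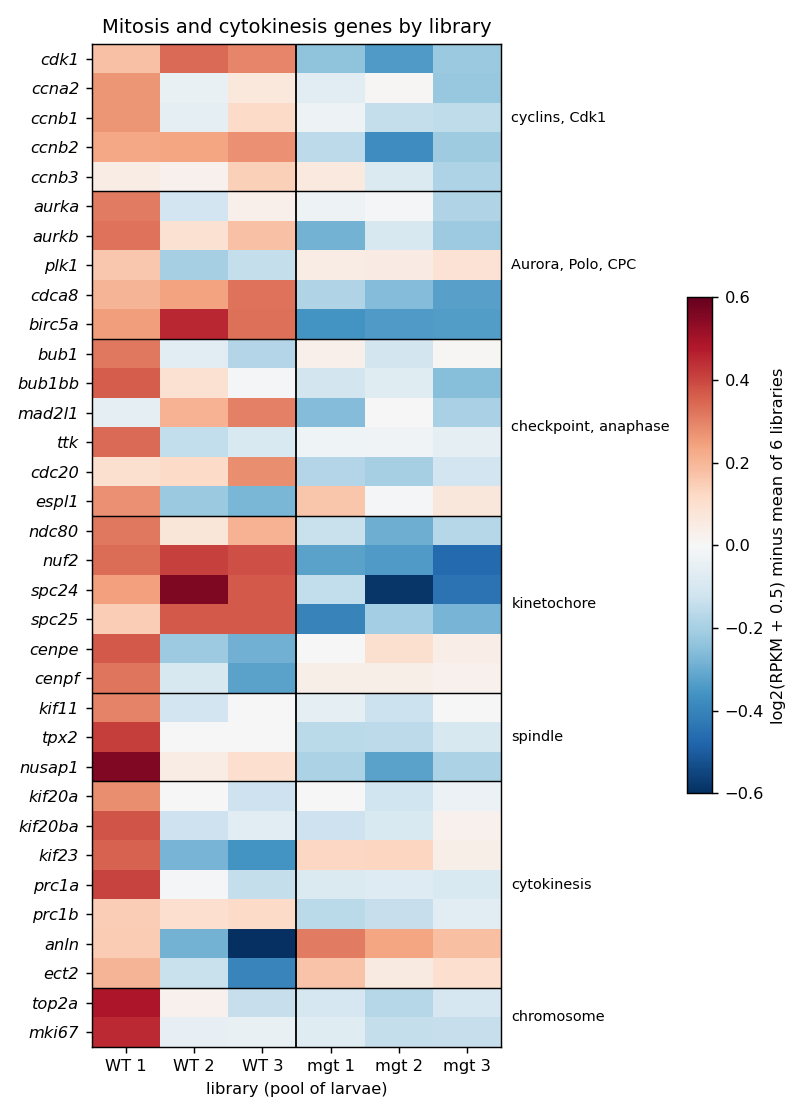
Level of the 34 tested genes in each library. Rows are genes, grouped by role, columns are the 3 WT and 3 *mgt* pools, and the colour is log2(RPKM + 0.5) minus the mean of the gene over the 6 libraries (red higher, blue lower). WT replicate 1 is the highest of the 6 libraries in 23 of the 34 genes, and every *mgt* library is below every WT library in 15.

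The levels fell into a few orders of the libraries. In 15 of the 34 genes (44.1%) every *mgt* library lay below every WT library, where this held for 21.6% of all genes tested. The reverse order, all *mgt* libraries above all WT libraries, was seen in 1 gene, *anln* (2.94%), and in 41.7% of all genes tested. In a further 7 genes, *plk1*, *ttk*, *espl1*, *cenpe*, *cenpf*, *kif23* and *ect2*, the *mgt* libraries lay above WT replicates 2 and 3 and below WT replicate 1, an order found in 10.4% of all genes tested. WT replicate 1 was the highest of the 6 libraries in 23 of the 34 genes (67.6%), against 21.6% of all genes tested, and the highest of the 3 WT libraries in 24 (70.6%), against 63.7%. Set against WT replicate 1, the mean of *mgt* on the log2 scale was lower in 33 of the 34 genes, with a median difference of -0.38, where 46.6% of all genes tested were lower. Against WT replicates 2 and 3 it was lower in 23 and higher in 11, with a median difference of -0.12, where 31.3% of all genes tested were lower. Summed over the 35 genes, the RPKM was 301.8, 253.4 and 254.7 in WT replicates 1, 2 and 3 and 223.2, 218.3 and 220.3 in *mgt* replicates 1, 2 and 3. Every *mgt* sum was thus below every WT sum. As a share of the RPKM of the library, the same sums were 0.0628%, 0.0487% and 0.0467% in WT and 0.0515%, 0.0496% and 0.05% in *mgt*, and on this scale the *mgt* libraries lay between WT replicate 1 and the other WT replicates.

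The pools of *mgt* were close to each other. The coefficient of variation of RPKM over the 3 *mgt* pools had a median of 5.11% over the 34 genes (0.36% to 18.3%). Over the 3 WT pools the median was 16.0%, and over WT replicates 2 and 3 it was 5.29%. Most of the WT spread in these genes thus lay between WT replicate 1 and the rest. Over all genes tested the medians were 5.35% for *mgt*, 21.2% for the 3 WT pools and 10.1% for WT replicates 2 and 3. This order is thus not particular to the list.

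The mitotic cyclins and their kinase are the first group. The kinase gene *cdk1* (ENSDARG00000087554, chromosome 17, 20923691 to 20929461 of GRCz11) was measured at 23.5, 26.4 and 25.6 RPKM in WT replicates 1, 2 and 3 and at 17.5, 16.3 and 17.7 in *mgt* replicates 1, 2 and 3. The groups did not overlap, and the level was 1.45-fold lower in *mgt* on the log2(RPKM + 0.5) scale (log2 fold change -0.54, standard error (SE) 0.093, limma, Benjamini-Hochberg adjusted p = 0.0066). Cyclin B2, *ccnb2* (ENSDARG00000036180, chromosome 7, 30626378 to 30631119), was near 2 RPKM in every WT pool, at 2.10, 2.11 and 2.18, and at 1.49, 1.21 and 1.41 in *mgt*. The estimate on the log2 scale was -0.495 (SE 0.12, limma, Benjamini-Hochberg adjusted p = 0.018). Cyclin B1, *ccnb1*, was the more abundant B-type cyclin per length, and its RPKM was 12.7, 10.1 and 11.4 in WT and 10.3, 9.46 and 9.39 in *mgt*. The *mgt* values overlapped the lowest WT value, and the log2 fold change of -0.22 was not called. Cyclin A2, *ccna2*, which acts from S phase into early mitosis, and cyclin B3, *ccnb3*, were not called either, at log2 fold changes of -0.19 and -0.14. As deposited, the fall of *cdk1* and *ccnb2* was thus not shared, past the test, by the other 3 genes of this group. The difference between the genes was not tested. With median-of-ratios factors (-0.47 and -0.52) and with quantile normalization *ccna2* and *ccnb1* were also called lower, and *ccnb3* was not. Under the same-sum scaling neither *cdk1* nor *ccnb2* was called.

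Of the Aurora and Polo kinase genes, *aurkb* was called lower as deposited, and *aurka* and *plk1* were not called. The difference between these genes was not tested. Aurora B, *aurkb* (ENSDARG00000037640, chromosome 14, 240487 to 246342), is the kinase of the chromosomal passenger complex, which corrects wrong attachments at the centromere and later directs cytokinesis. Its RPKM was 13.0, 11.0 and 11.7 in WT and 8.36, 9.59 and 8.77 in *mgt*, without overlap, and its log2 fold change was -0.39 (SE 0.11, limma, Benjamini-Hochberg adjusted p = 0.029). Aurora A, *aurka*, which acts at the spindle poles, had 7.71, 5.61 and 6.25 in WT and 5.97, 6.07 and 5.33 in *mgt*, and was not called (log2 fold change -0.15). With median-of-ratios factors (-0.44) and with quantile normalization *aurka* was called lower. Polo-like kinase 1, *plk1*, was at 14.3, 11.0 and 11.5 in WT and 13.1, 13.2 and 13.6 in *mgt*. Its *mgt* values lay inside the WT range, above WT replicates 2 and 3 and below WT replicate 1 (log2 fold change 0.12, not called).

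The other tested subunit genes of the chromosomal passenger complex were called lower as well. Survivin *birc5a* (ENSDARG00000075621, chromosome 12, 34429702 to 34435604), which places the complex on chromatin, had an RPKM of 6.91, 8.02 and 7.32 in WT and of 4.36, 4.41 and 4.43 in *mgt*. Its lowest WT value was above its highest *mgt* value, and it was 1.61-fold lower in *mgt* (log2 fold change -0.69, SE 0.11, limma, Benjamini-Hochberg adjusted p = 0.005). Borealin, *cdca8* (ENSDARG00000043137, chromosome 19, 47771659 to 47782916), was at 4.26, 4.39 and 4.69 in WT and at 3.15, 2.95 and 2.80 in *mgt*, which gave -0.51 on the log2 scale (SE 0.12, limma, Benjamini-Hochberg adjusted p = 0.015). The row CABZ01058261.1 (ENSDARG00000099194, chromosome 25, 3648497 to 3672560), matched to *incenp*, the scaffold of the complex, was at 23.6, 20.5 and 21.0 in WT and 13.6, 13.7 and 13.9 in *mgt*. It was 1.56-fold lower in *mgt* (log2 fold change -0.64, SE 0.095, limma, Benjamini-Hochberg adjusted p = 0.004). The row was called lower under each of the 3 other scalings and without WT replicate 1. Under the same-sum scaling *birc5a* was called lower (-0.475), and *aurkb* (-0.17) and *cdca8* (-0.31) were not. The second survivin gene, *birc5b*, was scarcely detected, at 0.15, 0.03 and 0.15 in WT and 0.23, 0.09 and 0.19 in *mgt*, and was not tested. The log2 ratio of *birc5a* to *birc5b*, each with 0.5 added, was 3.51, 4.01 and 3.59 in WT and 2.73, 3.06 and 2.84 in *mgt*. Every *mgt* ratio was below every WT ratio, a difference of -0.83 (two-sided exact permutation test, p = 0.10, which is the lowest this design can reach, and 0.20 after adjustment over the 2 paralog pairs tested). With *birc5b* this low, the ratio largely restates the level of *birc5a*.

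The lowest fold changes of the 34 genes were those of *spc24* and *nuf2*, of the kinetochore. The Ndc80 complex has 4 subunits, Ndc80 and Nuf2, which grip the microtubule, and Spc24 and Spc25, which hold the complex to the chromosome, and each of its 4 genes was called lower. The RPKM of *spc24* (ENSDARG00000093622, chromosome 3, 19355869 to 19363981) was 4.96, 6.29 and 5.43 in WT and 3.65, 2.57 and 2.89 in *mgt*, 1.72-fold lower (log2 fold change -0.78, SE 0.16, limma, Benjamini-Hochberg adjusted p = 0.011). The RPKM of *nuf2* (ENSDARG00000034624, chromosome 11, 429776 to 438518) was 9.44, 9.97 and 9.80 in WT and 5.82, 5.73 and 5.21 in *mgt*, 1.68-fold lower (log2 fold change -0.75, SE 0.10, limma, Benjamini-Hochberg adjusted p = 0.0031). In both genes the lowest WT pool lay well above the highest *mgt* pool, and WT replicate 1 was the lowest WT pool. The low-abundance subunit *spc25* (ENSDARG00000078433, chromosome 9, 48819280 to 48835494) had 1.49, 1.82 and 1.82 in WT and 0.86, 1.06 and 0.98 in *mgt* (log2 fold change -0.59, limma, Benjamini-Hochberg adjusted p = 0.013). Its row overlaps that of *nostrin*, at a mean RPKM of 0.763, and strand-specific counting is not stated, so its reads are uncertain. The fourth subunit gene, *ndc80* (ENSDARG00000071694, chromosome 12, 10353333 to 10365969), was at 10.0, 8.38 and 9.24 in WT and 7.2, 6.39 and 7 in *mgt* (log2 fold change -0.397, limma, Benjamini-Hochberg adjusted p = 0.031), and here WT replicate 1 was the highest WT pool. Under the same-sum scaling, *nuf2*, *spc24* and *spc25* were called lower and *ndc80* was not.

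The other kinetochore genes, both very large proteins of the outer kinetochore, had another order. The kinesin gene *cenpe*, which moves chromosomes to the spindle equator, was at 7.24, 4.66 and 4.42 in WT and 5.51, 5.91 and 5.68 in *mgt*. The *cenpf* gene was at 5.28, 3.83 and 3.20 in WT and 4.24, 4.25 and 4.22 in *mgt*. In both, *mgt* lay between WT replicate 1 and the other WT replicates, and the log2 fold changes of 0.09 and 0.07 were not called. Both turned negative under removal of the gene span trend over all genes (-0.33 for *cenpe*, called lower, and -0.22 for *cenpf*, not called), with median-of-ratios factors and with quantile normalization, where *cenpf* was called lower.

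**Figure D2:**
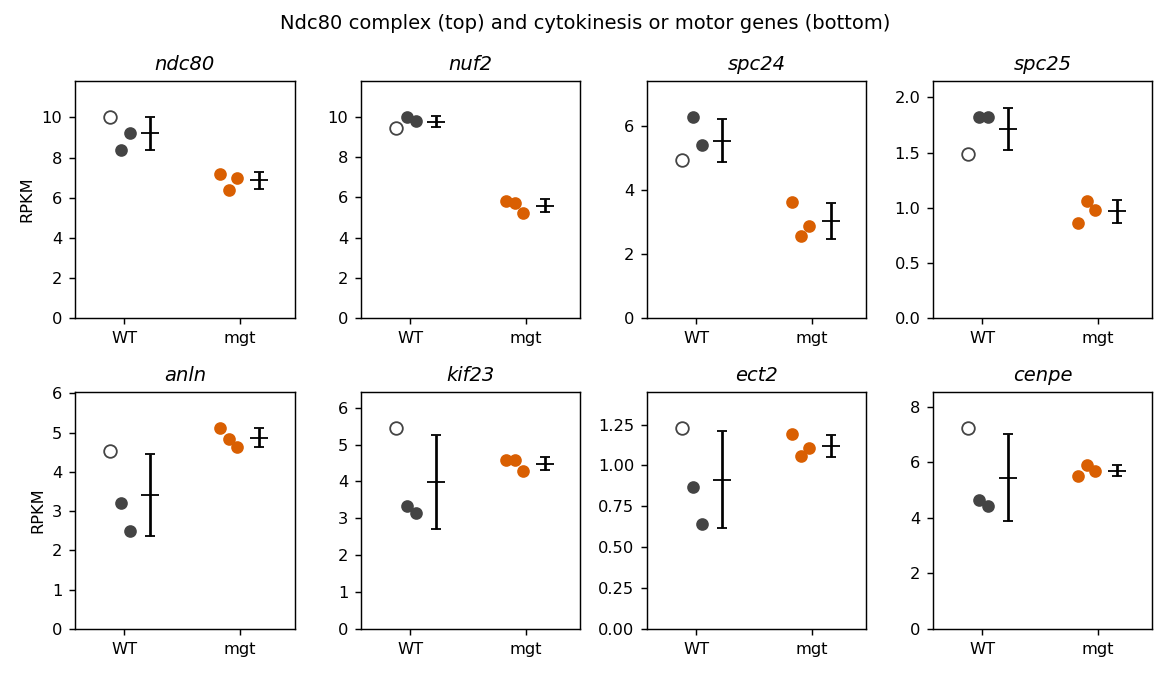
RPKM of the Ndc80 complex genes (top row) and of *anln*, *kif23*, *ect2* and *cenpe* (bottom row) in each pool, with the vertical axis from 0. Grey points are WT pools, with WT replicate 1 as the open circle, orange points are *mgt* pools, and the bars beside them give the mean ± SD of 3 pools. In the top row every *mgt* pool is below every WT pool, and in *kif23*, *ect2* and *cenpe* the *mgt* pools lie between WT replicate 1 and the other WT pools.

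Of the spindle checkpoint genes and their anaphase targets, 1 of 6 (16.7%) was called lower as deposited. This share was near the 15.6% of all genes tested. With the same sum per library 0 were called lower, where 9.33% of all genes tested were. With median-of-ratios factors, quantile normalization and the span trend removed 4, 5 and 4 of the 6 were called lower. In these fits 24.6%, 26.1% and 23.5% of all genes tested were called lower. The gene for Cdc20 (*cdc20*, ENSDARG00000100741, chromosome 2, 19217586 to 19234469), the activator of the anaphase promoting complex that the checkpoint holds in check, was at 7.42, 7.54 and 8.50 in WT and 6.06, 5.97 and 6.35 in *mgt*, which gave -0.33 on the log2 scale (SE 0.11, limma, Benjamini-Hochberg adjusted p = 0.045). This fall is close to both thresholds, and it was not called in 9 of the 18 alternative fits. Among the checkpoint kinases and Mad2, *mad2l1* was at 15.5, 18.7 and 20.03 in WT and 13.4, 16.1 and 14.1 in *mgt*. WT replicate 1 overlapped *mgt*, the log2 fold change was -0.31 (limma, Benjamini-Hochberg adjusted p = 0.094), and without WT replicate 1 the gene was called lower at -0.41. For *bub1bb*, which encodes the checkpoint protein BubR1, every *mgt* pool was below every WT pool, at 1.39, 1.44 and 1.21 against 2.12, 1.67 and 1.52, but the log2 fold change of -0.29 was not called. The kinase genes *bub1* (-0.05) and *ttk* (-0.07) were not called as deposited. With median-of-ratios factors (-0.33 and -0.35) and with the span trend removed (-0.42 and -0.46) both were called lower. Quantile normalization also called both lower, and *bub1bb* was called lower in each of these fits. Separase, *espl1*, the protease that cuts cohesin, was at 2.81, 1.84 and 1.76 in WT and 2.57, 2.21 and 2.36 in *mgt*. Its log2 fold change of 0.15 was not called with all libraries, and it was called higher, at 0.32, without WT replicate 1. In that fit 52.2% of all genes tested were called higher, and the median of all genes was 0.39.

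The genes for spindle assembly were highest in WT replicate 1. The microtubule-bundling gene *nusap1* (ENSDARG00000002403, chromosome 13, 33251721 to 33256667) had an RPKM of 23.7, 16.5 and 17.2 in WT and of 13.9, 12.7 and 14.0 in *mgt*. It was called lower with a log2 fold change of -0.47 (SE 0.15, limma, Benjamini-Hochberg adjusted p = 0.045). Without WT replicate 1 the fall was -0.31, under the fold threshold. This gene overlaps *ndufaf1* in the table, at a mean RPKM of 16.6, and strand-specific counting is not stated, so its reads are uncertain. The rows of *ccnb3*, *mad2l1* and *tpx2* also overlap other rows, at a mean RPKM of 0.95, 2.39 and 0.747. The *tpx2* gene, whose product nucleates spindle microtubules and activates Aurora A, was at 14.5, 10.7 and 10.8 in WT and 9.54, 9.60 and 10.0 in *mgt*. The groups did not overlap, and the log2 fold change of -0.28 was not called. The motor gene *kif11*, whose kinesin pushes the spindle poles apart, was at 15.2, 11.3 and 12.2 in WT and 11.8, 11.1 and 12.3 in *mgt* (-0.12, not called). Both *tpx2* and *kif11* were called lower with median-of-ratios factors and with quantile normalization, and *tpx2* also with the span trend removed.

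As deposited, none of the 7 genes of the central spindle and cytokinesis was called with all libraries. Of all genes tested 15.6% were called lower and 31.8% higher. At an unadjusted limma p below 0.05, 1 was higher and 0 were lower. With median-of-ratios factors, quantile normalization and the span trend removed, 4, 4 and 5 of the 7 were called lower. In these fits 24.6%, 26.1% and 23.5% of all genes tested were called lower. Anillin, *anln* (ENSDARG00000060917, chromosome 19, 35433155 to 35450857), the scaffold of the contractile ring, was at 4.54, 3.22 and 2.49 in WT and at 5.12, 4.83 and 4.64 in *mgt*. It was the one gene of the 34 in which every *mgt* pool was above every WT pool (log2 fold change 0.49, SE 0.20, limma, Benjamini-Hochberg adjusted p = 0.085). Without WT replicate 1 it was called higher at 0.68 (limma, Benjamini-Hochberg adjusted p = 0.00098), and under the same-sum scaling it was called higher as well. The kinesin of the centralspindlin complex, *kif23*, was at 5.45, 3.34 and 3.14 in WT and 4.58, 4.59 and 4.27 in *mgt*. The exchange factor *ect2*, which switches on RhoA at the cell equator, was at 1.23, 0.87 and 0.64 in WT and 1.19, 1.06 and 1.11 in *mgt*. Both lay between WT replicate 1 and the rest, with log2 fold changes of 0.19 and 0.22 that were not called. Without WT replicate 1 they were called higher, at 0.41 and 0.37. In that fit 52.2% of all genes tested were called higher and the median of all genes was 0.39, so both genes lay near it. After removal of the span trend *ect2* was called lower, at -0.39.

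The remaining kinesins and microtubule bundlers of this group were not called as deposited. Each of them was called lower with median-of-ratios factors, with quantile normalization and with the span trend removed. Their values were -0.10 for *kif20a* and -0.125 for *kif20ba*, whose kinesins act in the midzone of the dividing cell, and these rows overlap *cdc23* and *ankrd1a* in the table. The bundling protein of the central spindle is encoded by the paralogs *prc1a* and *prc1b*. The RPKM of *prc1b* was 4.81, 4.64 and 4.69 in WT and 3.78, 3.85 and 4.08 in *mgt*, without overlap, whereas *prc1a* was at 3.71, 2.66 and 2.38 in WT and 2.5, 2.52 and 2.49 in *mgt*. The log2 fold changes of -0.24 and -0.17 were not called. The log2 ratio of *prc1a* to *prc1b* differed by 0.08 between the groups (two-sided exact permutation test, p = 0.70, and 0.70 after adjustment over the 2 pairs), and it was higher in WT replicate 1 (-0.34) than in WT replicates 2 and 3 (-0.70 and -0.85).

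The chromosome genes *top2a* and *mki67* were among the most abundant of the list per length. Topoisomerase II alpha, which untangles sister DNA, was at an RPKM of 24.6, 17.7 and 15.8 in WT and 16.2, 15.4 and 16.2 in *mgt*, and Ki-67, the common marker of cycling cells, at 26.4, 18.6 and 18.6 in WT and 18.3, 17.4 and 17.4 in *mgt*. WT replicate 1 was the highest pool for both. The log2 fold changes of -0.25 for *top2a* and -0.23 for *mki67* were not called as deposited, and without WT replicate 1 they were -0.07 and -0.07. Under the same-sum scaling they were -0.02 and -0.007 and were not called. Removing the span trend led to both genes being called lower, at -0.65 and -0.40. Median-of-ratios factors also called both lower (-0.55 and -0.54), as did quantile normalization (-0.44 and -0.41). In the table *mki67* starts 647 bases after the end of *ndc80* on chromosome 12. As deposited, the fold changes of these neighbours were on different sides of the threshold.

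**Figure D3:**
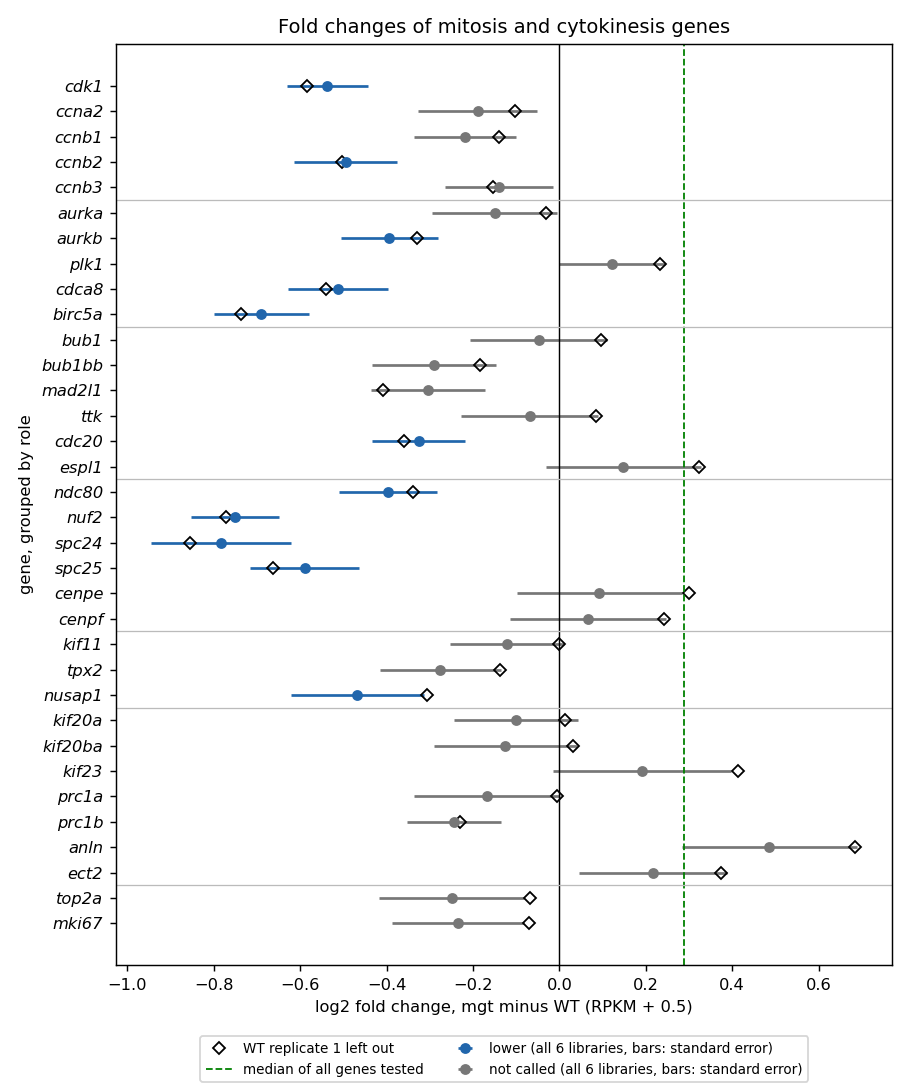
Log2 fold change of *mgt* against WT for the 34 tested genes, grouped by role. Filled points with bars are the limma estimates and their standard errors with all 6 libraries (blue called lower, grey not called), open diamonds are the estimates without WT replicate 1, and the dashed line is the median of all genes tested at 0.29. The genes of the Ndc80 complex lie from -0.78 to -0.40, and *anln* at 0.49 is the one gene to the right of the dashed line with all libraries.

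The fold changes were ordered by gene span, which is the genomic length from first to last base, introns included. Over the 34 genes Spearman's rho between span and log2 fold change was 0.67, against 0.32 over all 20435 genes tested. Genes share the same 6 libraries, so these are descriptions across genes. For WT replicate 1 against WT replicates 2 and 3, a difference within one genotype, the same rho was 0.57 over the 34 genes and 0.31 over all genes. Span classes were chosen after the values were seen. Of the 10 genes spanning up to 10 kb, 7 were called lower and the median log2 fold change was -0.48, where 24.3% of all genes of this class were called lower and their median was 0.04. Of the 10 genes from 10 to 20 kb, 4 were called lower, with a median of -0.26, where 17.8% of all genes of this class were called lower and their median was 0.16. Of the 14 genes over 20 kb, 0 were called lower, with a median of -0.08, where 7.71% of all genes of this class were called lower and their median was 0.54. The median of the list was below the median of all genes in each class, whereas single genes such as *plk1* (0.12) and *anln* (0.49) were above it. A single trend with gene span, fitted over all genes and removed from each library, left a rho of 0.07 in the 34 genes and gave 24 called lower and 0 higher, where 23.5% and 20.4% of all genes tested were called. The part of gene length in the order of these genes was not tested further, and the gene length that the authors used for RPKM is not stated in the sources used here.

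**Figure D4:**
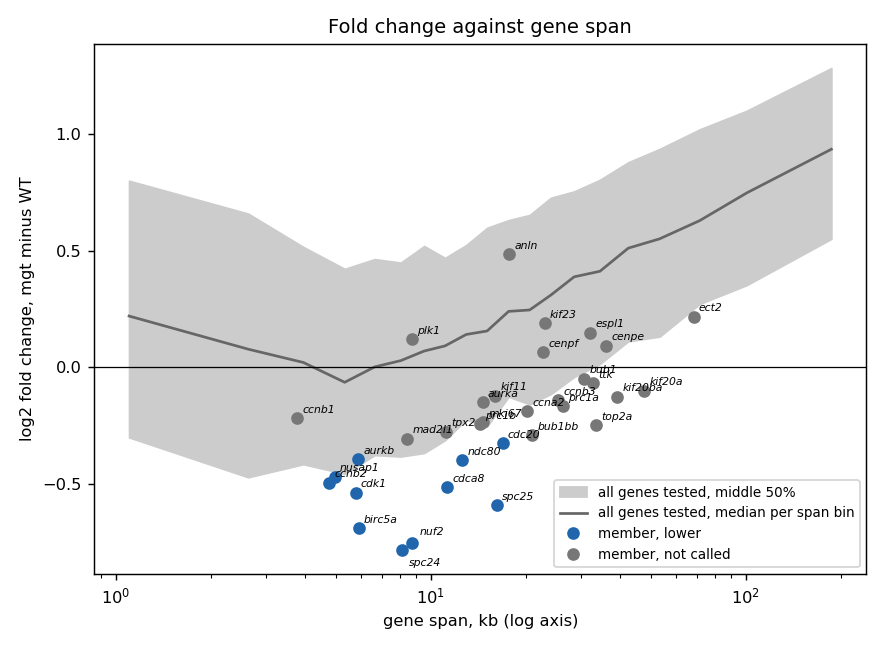
Log2 fold change of *mgt* against WT plotted against gene span in kb on a log axis. Points are the 34 tested genes (blue called lower, grey not called), the grey line is the median of all genes tested in 20 bins of span and the band their middle 50%. The genes of the list run from -0.48 in the median up to 10 kb to -0.08 over 20 kb, below the median of all genes in each class.

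Other genes of mitosis were taken from a list of 80 names. The table held 72 rows for them, all tested. Of these, 18 (25%) were called lower and 3 (4.17%) higher, where 15.6% and 31.8% of all genes tested were called. Their median log2 fold change was -0.11. Without WT replicate 1 the counts were 17 and 9, where 18.1% and 52.2% of all genes tested were called. Under the same-sum scaling they were 5 and 6 of the 72, where 9.33% and 43.1% of all genes tested were called. The share called lower was there below that of all genes. The median then turned to 0.08, where that of all genes was 0.49. The genes called lower with the lowest values were *cenph* (-0.73), of the inner kinetochore, the spindle motor gene *kif15* (-0.63) and *pttg1* (-0.63), which encodes securin, the inhibitor of separase. The genes called higher with the highest values were *cita* (1.36), a citron kinase gene of the midbody that neurons also express, *ckap5* (0.83), which promotes microtubule growth, and one of the *ube2c* rows (ENSDARG00000101618, 0.66). The other *ube2c* row (ENSDARG00000114670) was at -0.23 and not called, and near-identical copies can share reads, so both are uncertain. With the span trend removed, *cita* and *ckap5* were not called. Of the 17 genes of the anaphase promoting complex and its activators, 5 (29.4%) were called lower and 1 (5.88%) higher. These shares compare with 15.6% and 31.8% of all genes tested. Same-sum scaling gave 2 of the 17 lower and 3 higher, where 9.33% and 43.1% of all genes tested were called. Leaving out WT replicate 1 gave 6 lower and 4 higher, where 18.1% and 52.2% were called. As deposited, those called lower included *cdc26* (-0.64), *anapc11* (-0.64) and *anapc13* (-0.43), and the gene called higher was *fzr1a* (0.46). Of these, *anapc13* was not called under the same-sum scaling, nor *fzr1a* with median-of-ratios factors or quantile normalization. The sign of the median of this list (0.02) turned with median-of-ratios factors (-0.26).

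The genes of the replication fork, which act in S phase before mitosis, were mostly lower. Of 48 rows tested, 40 (83.3%) were called lower, where 15.6% of all genes tested were called lower. None was called higher, as 0 were higher at an unadjusted limma p below 0.05, and the median log2 fold change was -0.76. Under the other scalings and without WT replicate 1, from 29 to 48 were called lower and 0 higher. In these fits from 9.33% to 26.1% of all genes tested were called lower. The lowest were *gins1* (-1.28), *gins2* (-1.23) and *pcna* (-1.19), the sliding clamp gene, whose RPKM was 155.1, 179.6 and 192.9 in WT and 77.8, 78.5 and 74.1 in *mgt*. Summed over the list, the share of the RPKM of the library was 0.162%, 0.151% and 0.144% in WT and 0.104%, 0.0998% and 0.0966% in *mgt*, without overlap, whereas the share of the 35 mitosis and cytokinesis genes did overlap. On the log2 scale, the median excess of WT replicate 1 over the rest of WT was 0.08 for the replication list and 0.34 for the mitosis and cytokinesis genes. The difference between these lists was not tested.

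Of 31 genes of G1, of the step from G1 to S and of the cell cycle transcription factors, 4 (12.9%) were called lower and 3 (9.68%) higher. Of all genes tested 15.6% were called lower and 31.8% higher, so the lower share was near the background. The kinase genes *cdk2* (-0.61) and *cdk4* (-0.46) and the cyclin gene *ccne1* (-0.495) were called lower, and *lin54* (0.74), *ccnd1* (0.53) and *cdk6* (0.47) higher. With median-of-ratios factors 14 of the 31 were called lower and 1 higher, where 24.6% and 23.4% of all genes tested were called. The genes *cdk6* and *ccnd1* were then no longer called, and with the same sum per library *cdk4* and *ccne1* were not called. Cyclin D1, *ccnd1*, which responds to growth signals, had an RPKM of 18.3, 13.4 and 12.8 in WT and of 20.7, 21.4 and 21.9 in *mgt*. The factors best known for switching on mitotic genes, *foxm1* and *mybl2b*, were not called, at 0.25 and -0.11. For *foxm1* the RPKM was 2.80, 1.7 and 1.6 in WT and 2.61, 2.47 and 2.27 in *mgt*, the same order of libraries as in *kif23* and *ect2*. Without WT replicate 1 *foxm1* was called higher at 0.455, where 52.2% of all genes tested were called higher. Of 25 genes that restrain the cycle, 11 (44%) were called higher and 1 (4%) lower, where 31.8% and 15.6% of all genes tested were called. Their median was 0.33, near the median of all genes tested at 0.29. With median-of-ratios factors 8 were called higher and 7 lower, where 23.4% and 24.6% of all genes tested were called. The antiproliferative gene *btg1* (1.47), *gadd45ga* (1.12) and *cdkn1ba* (1.11), which encodes a p27-type inhibitor, were higher in *mgt*, and *cdkn1a* (-0.93), which encodes p21, was lower. The RPKM of *cdkn1a* was 21.4, 22.3 and 21.4 in WT and 11.2, 11.6 and 10.7 in *mgt*. These 4 calls held under the 3 other scalings, without WT replicate 1 and with the span trend removed.

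**Figure D5:**
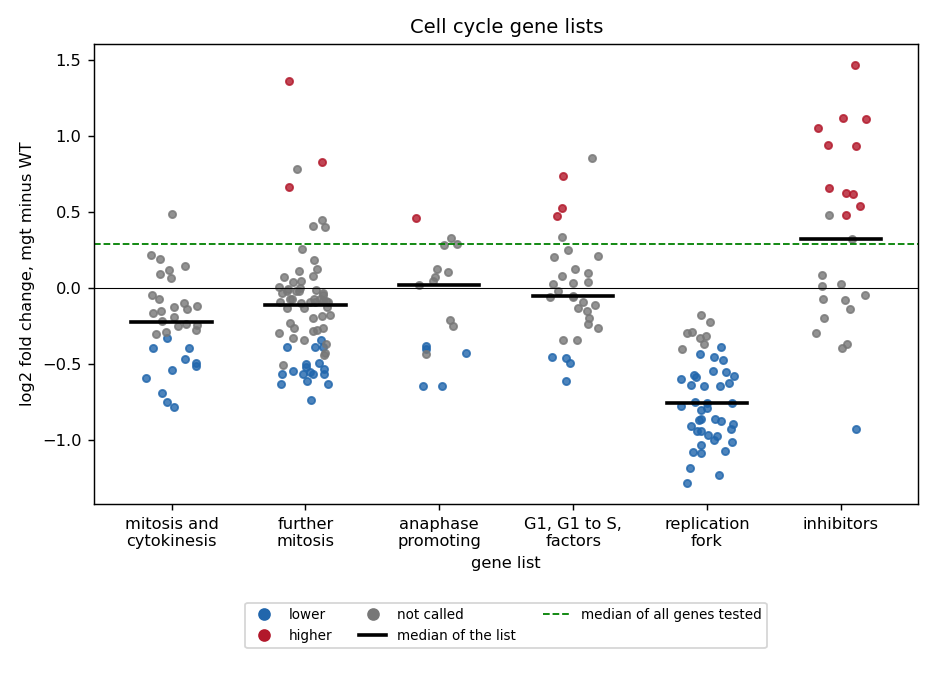
Log2 fold change of *mgt* against WT for each tested gene of the mitosis and cytokinesis list and of 5 other cell cycle lists. Points are genes (blue called lower, red called higher, grey not called), black bars are the list medians, and the dashed line is the median of all genes tested at 0.29. The median is -0.23 for the mitosis and cytokinesis genes, -0.76 for the replication fork and 0.33 for the inhibitors.

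Markers of tissues that hold or lack dividing cells were read in the same libraries. Of 28 rows for markers of neural and retinal progenitors, 8 (28.6%) were called higher and 2 lower, where 31.8% of all genes tested were called higher. This share was near the background, but the median log2 fold change was 0.51, against 0.29 for all genes. Leaving out WT replicate 1 gave 20 of the 28 higher and 3 lower, where 52.2% and 18.1% of all genes tested were called. Their summed RPKM was 326.3, 155.2 and 174.0 in WT replicates 1, 2 and 3 and from 315.3 to 330.5 in *mgt*, so WT replicate 1 lay with *mgt*. For 20 neuron markers the sums were 955.1, 324.8 and 427.0 in WT and from 1115 to 1160 in *mgt*, and 11 (55%) were called higher and 0 lower. Leaving out WT replicate 1 gave 19 of the 20 neuron markers higher and 0 lower. All 14 exocrine pancreas markers and 11 of 12 intestine markers were called lower, where 15.6% of all genes tested were. Pancreas sums ran from 5964 to 8913 in WT and from 580.0 to 621.1 in *mgt*. Intestine sums ran from 1521 to 2470 in WT and from 479.9 to 511.0 in *mgt*. Of 10 epidermis markers 7 (70%) were called lower, and these were keratin or cytokeratin genes and *cldni*. The markers *tp63* (0.16), *epcam* (0.025) and *cldne* (-0.205) were not called. Of 11 tested markers of thymus, lymphoid and myeloid cells, 4 (36.4%) were called higher and 0 lower, near the 31.8% of all genes tested. All 10 tested erythrocyte markers, all 11 lens markers and 9 of 10 cartilage markers were called higher. Of 15 liver rows 10 were called lower and 3 higher, and of 17 fast muscle rows 2 lower and 1 higher. For fast muscle the counts were 11 lower and 1 higher without WT replicate 1, where 18.1% and 52.2% of all genes tested were called. Of 7 germ cell markers 2 were tested, and 1 was called higher. The part of these tissues in the levels of the mitosis and cytokinesis genes was not tested.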

How the data were processed

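RNA from 3 WT and 3 *mgt* pools of whole larvae was sequenced. Per the submitters' processing notes and the paper's methods, the authors checked reads with FastQC, trimmed them with cutadapt (version 5.2), aligned them to GRCz11 with STAR and counted them on genes with HTSeq. They deposited RPKM, rounded to 2 decimals, and the gene length behind it is not given in the sources used here. The authors' ratio and SD columns were not used, and their mean columns only to see which libraries they cover.

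The 32521 lines hold 32520 genes, since a single identifier is repeated. Library totals were read from value steps in genes spanning at most 160 bases. Values were log2(RPKM + 0.5), and genes whose mean RPKM reached 0.5 were fitted with limma 3.58.1 in R 4.3.3 (eBayes with trend, Benjamini-Hochberg adjustment over all genes tested). The code was tested on simulated data. The genes and lists were chosen with earlier results of these data known. All listed genes are described, and of each other cell cycle list the 3 lowest and 3 highest called genes, with *foxm1*, *mybl2b*, *cdkn1a*, *pcna* and *ccnd1*. Alternatives were other pseudocounts (0.1 and 1), filters, scalings, eBayes settings and thresholds, removal of a lowess trend with gene span (span 0.3), a replicate block, and each library left out. One more, without WT replicate 1 and with the span trend removed, was chosen after seeing the data.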

Additional observations from a re-analysis of the deposited data

How the results depend on the processing

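As deposited, 11 mitosis and cytokinesis genes were called lower and 0 higher, with a median log2 fold change of -0.227, beside 18 further mitosis genes called lower and 9688 of all genes. In the same order, the counts of called-lower genes of both lists were 4 and 5 with the same sum per library (1 of the first list called higher, median -0.001), 25 and 42 with median-of-ratios factors (median -0.522), 27 and 53 with quantile normalization (median -0.522), 24 and 37 with the gene span trend removed (median -0.444), and 24 and 42 with the trend removed and WT replicate 1 left out (1 called higher, median -0.471). With a fold change of at least 2.38 they were 0 and 0, and 2174 of all genes passed. With each library left out in turn, the genes of the list called lower ran from 3 to 11 and those called higher from 0 to 4, the median from -0.267 to -0.121, the further mitosis genes called lower from 4 to 17, and all called genes from 4042 to 14352. In these fits from 8.28% to 18.1% of all genes tested were called lower. The lowest count of further mitosis genes was a smaller share of its list than this range. The replicate numbers were not taken to pair the samples. Correlations of same-numbered deviations were -0.03, 0.03 and 0.027, and those of differently numbered ones ran from -0.119 to 0.084. With 3 libraries per group this check cannot exclude a pairing. With a replicate block 5 (14.7%) and 10 genes of both lists were called lower. The share of all genes called lower is not given for this fit, nor for the trend removed with WT replicate 1 left out. Their counts thus stand without a background. Reversals with a call were -0.335 for *cenpf* with quantile normalization, -0.331 for *cenpe* and -0.393 for *ect2* with the span trend removed, and -0.435 for *ect2* when WT replicate 1 was also left out. The difference in the log2 ratio of *birc5a* to *birc5b* was -1.125 with a pseudocount of 0.1 and ran from -0.921 to -0.674 with a library left out, and that of *prc1a* to *prc1b* from -0.033 to 0.224. The cause of these shifts was not tested. Other pseudocounts, filters and eBayes settings kept from 9 to 11 of the 11 calls. Depth limits *birc5b*, which was under the filter.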
